A study of Mus musculus with 24 samples.

Results

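Of the 10 genes examined here, Mat1a, Mat2a, Gnmt, Ahcy, and Bhmt encode enzymes of the hepatic methionine cycle. Cbs and Cth encode the transsulfuration enzymes that draw homocysteine out of it. Pemt and Nnmt encode methyl-consuming enzymes, and Mthfd1l belongs to the mitochondrial folate pathway. Methionine synthase (Mtr) and Bhmt2 are not among the 10. The 10 genes were taken by name from the 23972 genes with counts, and each of the 10 symbols matched 1 gene. Levels were measured by RNA-Seq of polyA RNA from whole liver in 24 libraries of female mice. Controls were Lmna fl/fl Adipoq-Cre- mice, of which 7 received vehicle and 3 received FGF21. Lmna ADKO mice were Lmna fl/fl Adipoq-Cre+, of which 6 received vehicle and 8 received FGF21. All carried loxP sites around exons 10 and 11 of Lmna. Adipoq-Cre removes these exons in adipocytes and in Adipoq-expressing marrow cells but is not expected in hepatocytes, and the mice lose fat with age. By the methods, mice were 12 to 14 weeks old at the start, were housed at 22°C, and ate a 60% high-fat diet for 4 weeks before AAV8 expressing mouse FGF21, or vehicle, was injected, and the timeline ended 8 weeks later. The labels call the treated groups a rescue without naming the agent, which was read as FGF21.

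In liver, methionine adenosyltransferases make S-adenosylmethionine, the methyl donor of the cell. Mat1a encodes the form of mature hepatocytes and Mat2a the form of most other cells. Methyltransferases such as Gnmt, Pemt, and Nnmt use the donor, Ahcy splits the S-adenosylhomocysteine that remains, and the resulting homocysteine is either remethylated, for example by Bhmt with betaine, or passed by Cbs and Cth toward cysteine. Hepatocytes hold most of this capacity, and mice without Mat1a, Gnmt, or Pemt are known for fatty liver.

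Promoter sequences are shown for the 3 genes of the cycle and its transsulfuration exit that fell in Lmna ADKO liver and had an entry (Gnmt, Ahcy, and Cbs), and for Mthfd1l, which rose. RefSeq (GRCm38.p6) entries, from 250 bases before to 50 bases after the start that each entry gives, were matched for 7 of the 10 genes. Entries of Mat1a, Cth, and Nnmt were not analysed here. The start of an entry can differ from the gene position given below, as for Bhmt, Cbs, and Mthfd1l. Both windows of Pemt lie inside that gene. Capitals mark matches to 4 motifs searched on both strands, which were TGATGNAA (C/EBP-ATF), AGGTCA (nuclear receptor half-site), CACGTG (E-box), and TATAAA (the site of TBP). The Gnmt promoter lies at chr17:46729116-46729415, that of Ahcy at chr2:155074448-155074747, and that of Cbs at chr17:31637156-31637455, all on the minus strand, and that of Mthfd1l at chr10:3972825-3973124 on the plus strand.
Gnmt: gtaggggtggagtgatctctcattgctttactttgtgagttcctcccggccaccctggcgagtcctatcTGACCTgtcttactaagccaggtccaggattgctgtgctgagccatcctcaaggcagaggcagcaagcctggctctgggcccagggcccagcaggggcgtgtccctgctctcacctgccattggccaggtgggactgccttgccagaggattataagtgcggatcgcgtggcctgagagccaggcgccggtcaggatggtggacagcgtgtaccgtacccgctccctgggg
Ahcy: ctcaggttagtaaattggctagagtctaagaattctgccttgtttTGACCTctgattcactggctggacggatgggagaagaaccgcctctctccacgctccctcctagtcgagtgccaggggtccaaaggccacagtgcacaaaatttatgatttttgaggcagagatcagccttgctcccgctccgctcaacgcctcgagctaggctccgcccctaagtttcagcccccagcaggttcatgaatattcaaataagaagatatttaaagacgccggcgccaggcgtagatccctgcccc
Cbs: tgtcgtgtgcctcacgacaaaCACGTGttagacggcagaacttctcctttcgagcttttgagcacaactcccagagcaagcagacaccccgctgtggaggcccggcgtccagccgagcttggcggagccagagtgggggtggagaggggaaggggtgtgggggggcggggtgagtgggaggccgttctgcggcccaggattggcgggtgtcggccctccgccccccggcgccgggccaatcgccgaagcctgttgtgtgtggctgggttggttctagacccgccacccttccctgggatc
Mthfd1l: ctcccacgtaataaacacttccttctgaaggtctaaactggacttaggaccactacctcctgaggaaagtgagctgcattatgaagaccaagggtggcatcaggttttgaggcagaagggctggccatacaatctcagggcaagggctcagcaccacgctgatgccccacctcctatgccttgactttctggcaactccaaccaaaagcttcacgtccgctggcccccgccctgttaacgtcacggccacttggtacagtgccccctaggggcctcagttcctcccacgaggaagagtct

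Positions are counted to the first base of a motif from the start that the entry gives. AGGTCA was found on the minus strand of the Gnmt promoter at -181 and of the Ahcy promoter at -205. The Bhmt promoter, not printed, held AGGTCA 3 times on the plus strand, at -234, -72, and -47. AGGTCA occurs in 16.3% of the 32851 promoters of the same length. The Cbs promoter held CACGTG at -229, a motif of 7.15% of promoters. Mat2a held TATAAA at -32, a motif of 13.6% of promoters. TGATGNAA, present in 3.97% of promoters, was in none of the 8 sequences of these 7 genes, and the Mthfd1l sequence and both sequences for Pemt held none of the 4 motifs. The matches are given as a description of these windows.

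Libraries held 19863304 to 21510054 counted reads. Levels are given as TMM-scaled CPM, which express the counts of a gene relative to those of its library. A gene was called changed where it differed by more than 1.5-fold and the adjusted p was below 0.05. Transcripts of Lmna, counted over the whole gene, were not lower in Lmna ADKO liver, at 26.7 ± 2.57 CPM (SD, n = 6) against 18.6 ± 2.47 CPM (SD, n = 7) with vehicle, and do not check a deletion in adipocytes. Fgf21 was at 4.01 ± 3.18 CPM in vehicle-treated and 4.78 ± 2.29 CPM in FGF21-treated controls, and at 7.99 ± 2.48 CPM and 5.36 ± 2.41 CPM in Lmna ADKO mice, so that its counts did not set the treated groups apart. A slope on log2 exonic length was fitted per library to log2 CPM minus the median of the gene over libraries of the same genotype. This slope was most negative in 3 libraries. It was -0.331 in FGF21-treated Lmna ADKO library 7, -0.289 in FGF21-treated control library 3, and -0.154 in vehicle-treated control library 3. The other 21 lay between -0.109 and 0.128. The 3 libraries were set apart by name, with no fixed cutoff. The animal numbers run to 3 or to 4 digits, 6 and 1 of them in vehicle-treated controls, 0 and 3 in FGF21-treated controls, 1 and 5 in vehicle-treated Lmna ADKO mice, and 4 and 4 in FGF21-treated Lmna ADKO mice. This number series is not described in the labels. It largely coincides with genotype among vehicle-treated mice and with treatment among controls.

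The first question was the order of these genes in liver. Per kilobase of exon, Gnmt and Mat1a led in vehicle-treated controls at 1365 ± 482 and 1170 ± 142 CPM per kb (SD, n = 7), followed by Ahcy at 791 ± 173 and Bhmt at 279 ± 137 CPM per kb. Pemt at 147 ± 28.4, Nnmt at 100 ± 32.6, Cbs at 88.4 ± 14.8, and Cth at 85.7 ± 28.2 CPM per kb came next. Mat2a stood at 16.4 ± 1.92 and Mthfd1l at 0.305 ± 0.224 CPM per kb. Nnmt, Cbs, and Cth lay within 1 SD of each other, and Gnmt and Mat1a differed by less than the SD of Gnmt but by more than that of Mat1a. In vehicle-treated Lmna ADKO liver, Mat1a stood first at 950 ± 179 CPM per kb and Gnmt at 552 ± 133 CPM per kb (SD, n = 6), close to Ahcy at 480 ± 143 and Bhmt at 446 ± 169 CPM per kb. The 2 methionine adenosyltransferases kept their distance, with a log2 ratio of Mat2a to Mat1a per length of -6.15 ± 0.19 in vehicle-treated controls and -6.19 ± 0.29 in vehicle-treated Lmna ADKO liver.

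**Figure D1:**
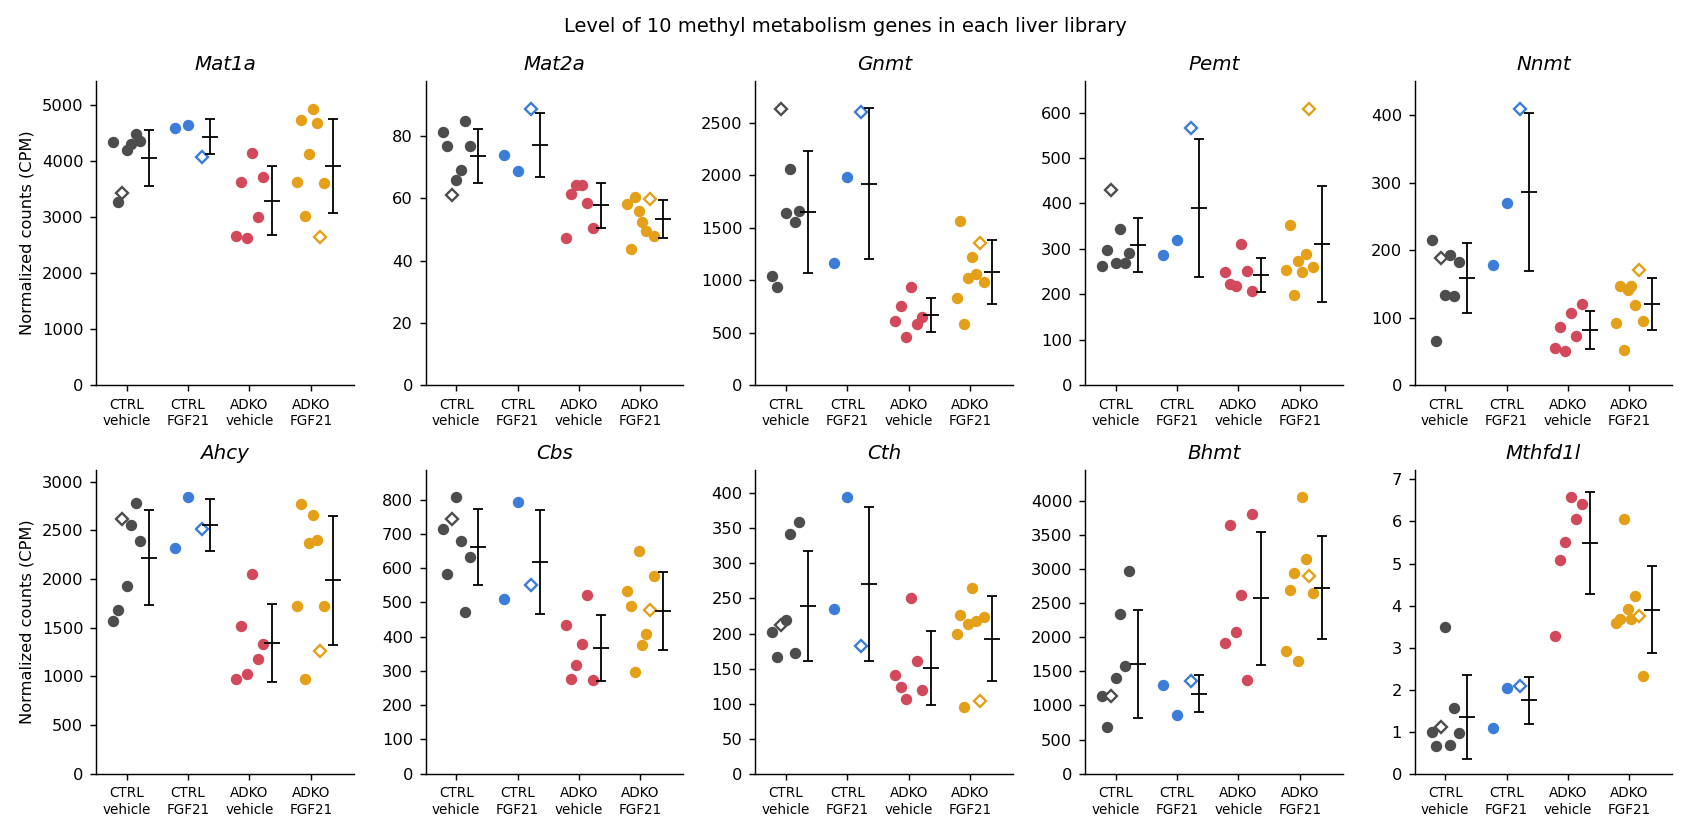
Level of each gene in each library, in CPM on a linear axis from 0, by group (CTRL, control; ADKO, Lmna ADKO). Open diamonds are the 3 libraries whose values fell most with gene length, bars to the right of each group are mean and SD. Gnmt in vehicle-treated Lmna ADKO liver lies below every vehicle-treated control, and Mthfd1l is higher in all but 1 of these libraries than in every control.

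With vehicle, Lmna ADKO liver had less mRNA for Gnmt, Nnmt, Cbs, and Ahcy and more for Mthfd1l than control liver. These 5 of 10 genes were called, 1 higher and 4 lower, whereas 8.48% of all 23972 genes were called in this comparison. Gnmt fell most, to 665 ± 161 from 1646 ± 582 CPM, and Mthfd1l rose 4.02-fold from a low level. The median log2 difference of the 10 genes was -0.51, with 8 lower and 2 higher, beside 0.0027 over all genes. For the 7 hepatocyte markers given below, the median was -0.36, with 6 lower and 1 higher. Liver was measured as a whole, so fewer cells of a type and less RNA per cell cannot be told apart.

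Gnmt, which uses S-adenosylmethionine to methylate glycine and is a main consumer of excess donor in hepatocytes, lies at chr17:46725664-46729168. In vehicle-treated controls it ranged from 935 to 2636 CPM with a median of 1636 CPM, and in vehicle-treated Lmna ADKO mice from 463 to 931 CPM with a median of 631 CPM. The highest Lmna ADKO library was thus just below the lowest control, and Gnmt was the only one of the 10 genes without overlap between these groups, beside 7.95% of all genes. The difference was 2.47-fold, at a log2 change of -1.31 (SE 0.24, edgeR adjusted p = 0.00040). The highest control value, 2636 CPM, was that of library 3, whose values fell with gene length, and without the libraries that stand apart the log2 change was -1.15 (edgeR adjusted p = 0.0019).

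Ahcy encodes the hydrolase that removes S-adenosylhomocysteine, an inhibitor of methyltransferases, and lies at chr2:155059310-155074497. It ranged from 1573 to 2782 CPM in vehicle-treated controls with a median of 2387 CPM, and from 972 to 2055 CPM in vehicle-treated Lmna ADKO mice with a median of 1257 CPM. Of the 6 Lmna ADKO libraries, 5 lay below every control and library 4 lay within the control range. Ahcy fell by 0.72 on the log2 scale (SE 0.21, edgeR adjusted p = 0.021). The call was lost without vehicle-treated Lmna ADKO library 1 (-0.64, adjusted p = 0.056) or library 3 (-0.66, adjusted p = 0.054). Ahcy shares 66.0% of its 50-base windows with Gm4737 and 30.2% with Gm9826, which averaged 51.6 and 5.40 CPM over the 24 libraries, and counting could split reads between them.

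Cbs joins homocysteine to serine and is the entry to transsulfuration, at chr17:31608894-31637238. Vehicle-treated controls held 472 to 807 CPM with a median of 678 CPM, and vehicle-treated Lmna ADKO mice 274 to 521 CPM with a median of 348 CPM. Again 5 of 6 Lmna ADKO libraries lay below every control. Cbs fell by 0.85 on the log2 scale, or 1.80-fold (SE 0.17, edgeR adjusted p = 0.0011), and leaving out any single library moved this value only between -0.98 and -0.78. Cth, which releases cysteine in the next step (chr3:157894248-157925077), did not pass the test. It ranged from 167 to 359 CPM in vehicle-treated controls with a median of 213 CPM and from 107 to 251 CPM in vehicle-treated Lmna ADKO mice with a median of 132 CPM, at a log2 difference of -0.67 (SE 0.26, edgeR adjusted p = 0.089). Lmna ADKO library 4 was the highest of its group at 251 CPM, and without it Cth was called at -0.88 (edgeR adjusted p = 0.021). DESeq2 called Cth with all libraries (-0.67, adjusted p = 0.035), which made 6 of 10 genes by that tool. Over all genes, DESeq2 called 2152 in this comparison and edgeR 2033.

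Nnmt, which methylates nicotinamide and so links the donor to NAD turnover, lies at chr9:48591877-48605153. It ranged from 65.05 to 214 CPM in vehicle-treated controls with a median of 182 CPM and from 49.8 to 120 CPM in vehicle-treated Lmna ADKO mice with a median of 79.2 CPM. Control library 2, the lowest of its group, stood within the Lmna ADKO range, and every Lmna ADKO library was below the control median. Nnmt fell by 0.95 on the log2 scale, or 1.94-fold (SE 0.29, edgeR adjusted p = 0.026). Its call was near the threshold, with an edgeR adjusted p of 0.063, 0.066, or 0.055 without vehicle-treated Lmna ADKO library 1, 3, or 5 (-0.86, -0.85, and -0.92 on the log2 scale), and of 0.055, 0.057, or 0.051 without control library 1, 3, or 5 (-0.87, -0.90, and -0.90).

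Mthfd1l encodes the mitochondrial enzyme that releases formate for cytosolic one-carbon units and lies at chr10:3973118-4167081. It was low in control liver, at 0.656 to 3.50 CPM with a median of 0.998 CPM with vehicle, and higher in vehicle-treated Lmna ADKO liver, at 3.29 to 6.57 CPM with a median of 5.79 CPM. Of the 6 Lmna ADKO libraries, 5 exceeded every control, and the overlap came from control library 4 at 3.50 CPM and Lmna ADKO library 1 at 3.29 CPM. Mthfd1l rose by 2.01 on the log2 scale (SE 0.29, edgeR adjusted p = 2.7e-05), and by 1.89 to 2.46 when any single library was left out. The floor of 3 counts corresponds to between 0.124 and 0.176 CPM, below every value of this gene.

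The other 4 genes were not called with vehicle. Mat1a (chr14:41105035-41124412) ranged from 3266 to 4487 CPM in vehicle-treated controls and from 2625 to 4138 CPM in vehicle-treated Lmna ADKO mice, at a log2 difference of -0.30 (95% interval -0.60 to 0.0011, edgeR adjusted p = 0.19). Mat2a (chr6:72432799-72439558) ranged from 61.2 to 85.0 CPM and from 47.2 to 64.5 CPM, and its difference of -0.35 (SE 0.10, edgeR adjusted p = 0.019) passed the p-value but not the fold limit. Both adenosyltransferases were thus on the lower side in Lmna ADKO liver. Pemt (chr11:59970614-60046489), which makes phosphatidylcholine from phosphatidylethanolamine with 3 methyl groups, ranged from 262 to 429 CPM and from 207 to 311 CPM, at -0.35 (95% interval -0.76 to 0.069, edgeR adjusted p = 0.28). With the length slope of each library as a covariate, the same difference of Pemt was -0.34 with an SE of 0.08 in place of 0.20 (adjusted p = 0.0021), still under the fold limit. Bhmt (chr13:93616675-93637961) ranged from 678 to 2966 CPM and from 1371 to 3798 CPM, so it was among the 2 genes on the higher side, at 0.68 (95% interval 0.093 to 1.27, edgeR adjusted p = 0.12), and it was called without control library 7 (0.90, edgeR adjusted p = 0.025). Bhmt shares 24.1% of its 50-base windows with Gm5096 and 13.5% with Bhmt-ps1, at means of 38.6 and 5.41 CPM. Particl, on the strand opposite Mat2a, averaged 1.97 CPM, and Gm43314, overlapping Cth on the same strand, averaged 1.81 CPM.

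The same 5 genes were called with the number series as a covariate, at -1.41 for Gnmt, -1.22 for Nnmt, -0.84 for Ahcy, -0.76 for Cbs, and 2.09 for Mthfd1l, whereas Bhmt moved from 0.68 to 0.28 (edgeR adjusted p = 0.63). Of the vehicle-treated controls only 1 has a 4-digit number, so no comparison was made within a number series. Cell markers moved between these groups as well. The 7 hepatocyte markers summed to 90998 to 150232 CPM in vehicle-treated controls and 72720 to 107836 CPM in vehicle-treated Lmna ADKO mice, and 3 of 7 fell (Ahsg, Serpina1a, and Fgb, secreted proteins of hepatocytes). Of 14 stellate and fibroblast markers 6 rose, at sums of 260 to 391 against 359 to 549 CPM, of 9 cholangiocyte markers 3 rose, at 40.9 to 67.2 against 101 to 214 CPM, and of 8 cycling cell markers 5 rose, at 37.6 to 48.0 against 46.7 to 73.9 CPM. Of 13 macrophage markers 3 rose and of 10 endothelial markers 2, with sums that overlapped, and 7 macrophage estimates were lower. Over all genes 8.48% were called between these groups. Spp1 is in both the cholangiocyte and the macrophage list and counts among the called genes of each (1.83, edgeR adjusted p = 0.00030), and it ranged from 23.3 to 224 CPM over the 24 libraries, whereas no other cholangiocyte marker exceeded 16.3 CPM. Lymphocyte and neutrophil lists had 0 of 10 and 0 of 7 genes called, though all 10 lymphocyte estimates were lower, at a median of -0.37. The adipocyte-defining Adipoq, Plin1, and Lep reached at most 0.609, 0.285, and 0.190 CPM in any library, whereas the lipid droplet gene Cidec and the fatty acid carrier Fabp4 of that list rose. The part of these cell markers in the values of the 10 genes was not tested.

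**Figure D2:**
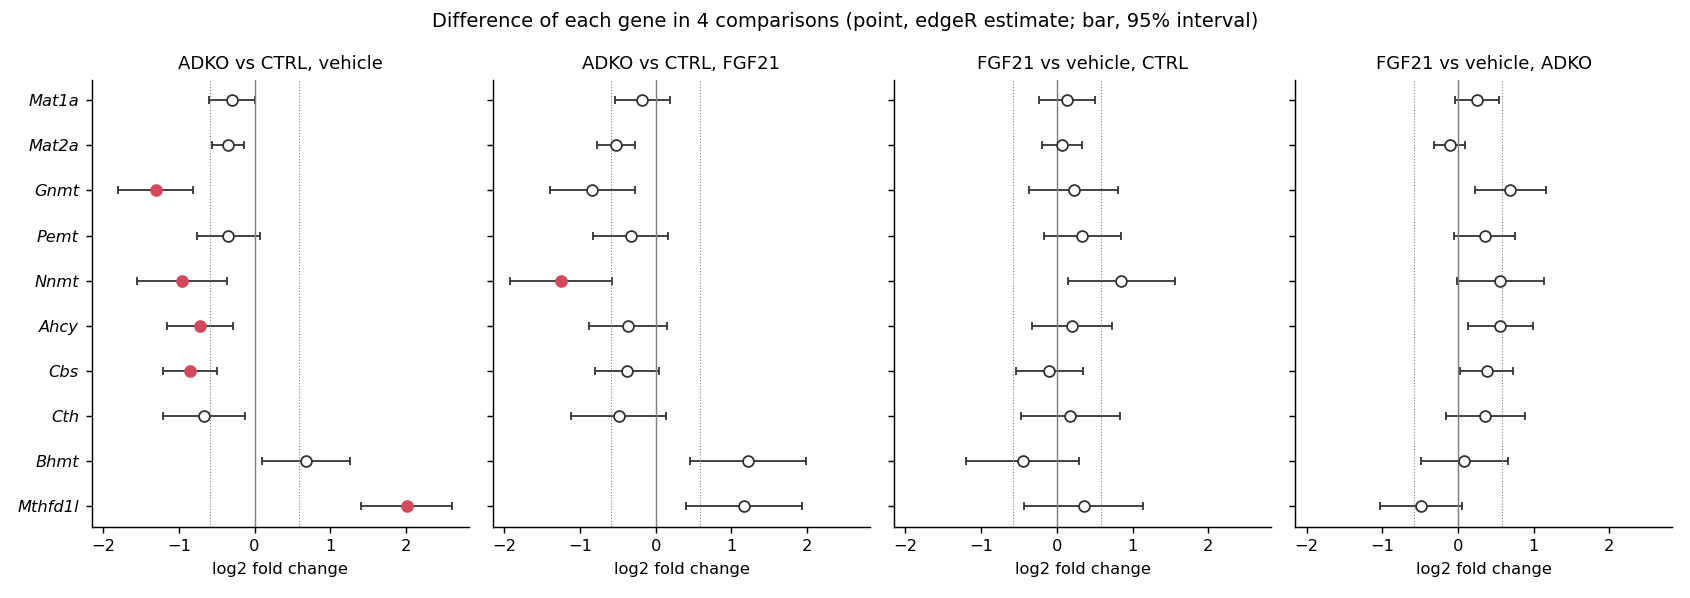
Log2 fold change of each gene in the 4 comparisons, as the edgeR estimate with its 95% interval. Filled points were called, and dotted lines mark a fold change of 1.5. With vehicle, 5 genes were called, with FGF21 only Nnmt was called between genotypes, and none was called for FGF21 against vehicle.

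The second comparison, of genotypes given FGF21, asked whether the differences were seen after treatment. It shares no library with the first. Nnmt alone was called, against 2.88% of all genes, and 8 of 10 genes were again lower and 2 higher, at a median of -0.37 beside 0.018 over all genes. The 7 hepatocyte markers had a like median of -0.38, with 6 lower and 1 higher. Nnmt was at 178, 270, and 409 CPM in the 3 FGF21-treated controls and at 51.8 to 170.0 CPM in the 8 FGF21-treated Lmna ADKO mice, with a median of 129 CPM. The groups did not overlap, with a log2 change of -1.25 (SE 0.33, edgeR adjusted p = 0.030). The highest library of each group, control library 3 at 409 CPM and Lmna ADKO library 7 at 170.0 CPM, were those whose values fell with gene length. Without control library 3, the log2 difference was -0.90 (edgeR adjusted p = 0.29), and without all 3 libraries that stand apart it was -0.98 (edgeR adjusted p = 0.23). The call was also lost without control library 2 (-1.29, adjusted p = 0.085), or Lmna ADKO library 1 (-1.20, adjusted p = 0.053) or library 8 (-1.21, adjusted p = 0.054), with the number series as a covariate (-1.08, adjusted p = 0.12), and with only the groups compared in the fit (-1.26, adjusted p = 0.0501).

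Mat2a, Bhmt, and Mthfd1l also had no overlap between FGF21-treated genotypes, which made 4 of 10 genes beside 5.35% of all genes. Mat2a stood at 74.1, 69.0, and 88.9 CPM in controls and at 43.6 to 60.4 CPM in Lmna ADKO mice, a difference of -0.53 (SE 0.12, edgeR adjusted p = 0.012) that remained under the fold limit with all libraries and was called without control library 2 (-0.61, edgeR adjusted p = 0.021). Bhmt stood at 1302, 861, and 1358 CPM in controls and at 1644 to 4047 CPM in Lmna ADKO mice, at 1.22 (SE 0.37, edgeR adjusted p = 0.067). Mthfd1l stood at 1.09, 2.05, and 2.10 CPM in controls and at 2.32 to 6.06 CPM in Lmna ADKO mice, at 1.17 (SE 0.37, edgeR adjusted p = 0.080). DESeq2 called Bhmt (1.20, adjusted p = 0.0088), Mthfd1l (1.15, adjusted p = 0.024), and Gnmt (-0.86, adjusted p = 0.036) besides Nnmt. Over all genes, DESeq2 called 1022 in this comparison and edgeR 690. In the libraries with 4-digit numbers alone, 3 against 4, Bhmt was called in place of Nnmt, at 1.44 (edgeR adjusted p = 0.026) against -1.12 for Nnmt (edgeR adjusted p = 0.16).

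Gnmt was at 1167, 1985, and 2608 CPM in FGF21-treated controls and at 578 to 1560 CPM in FGF21-treated Lmna ADKO mice, with a median of 1040 CPM, and 5 of 8 Lmna ADKO libraries lay below every control. Its difference of -0.84 (SE 0.27) had an edgeR adjusted p of 0.085. Ahcy was at 2314, 2838, and 2510 CPM in controls and from 969 to 2773 CPM in Lmna ADKO mice, at -0.36 (95% interval -0.88 to 0.15). Cbs was at 511, 792, and 550 CPM in controls and from 297 to 651 CPM in Lmna ADKO mice, at -0.38 (95% interval -0.80 to 0.044). These intervals include both no difference and the size measured with vehicle for Ahcy, and only 3 controls entered. Mat1a was at 4587, 4654, and 4079 CPM in controls and from 2648 to 4938 CPM in Lmna ADKO mice, a span that reached past the controls on both sides (-0.18, edgeR adjusted p = 0.65). Cth was at 235, 394, and 183 CPM in controls and from 95.5 to 264 CPM in Lmna ADKO mice (-0.49, edgeR adjusted p = 0.44). Pemt was at 286, 319, and 565 CPM in controls and from 198 to 609 CPM in Lmna ADKO mice with a median of 266 CPM (-0.33, edgeR adjusted p = 0.51). It reached 609 CPM in Lmna ADKO library 7 and 565 CPM in control library 3, both libraries in which short genes were high. In this comparison 2 of 7 hepatocyte markers fell (Ahsg and Serpina1a), where 2.88% of all genes were called. The 7 markers summed to 123505 to 131140 CPM in controls and 71416 to 148565 CPM in Lmna ADKO mice.

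**Figure D3:**
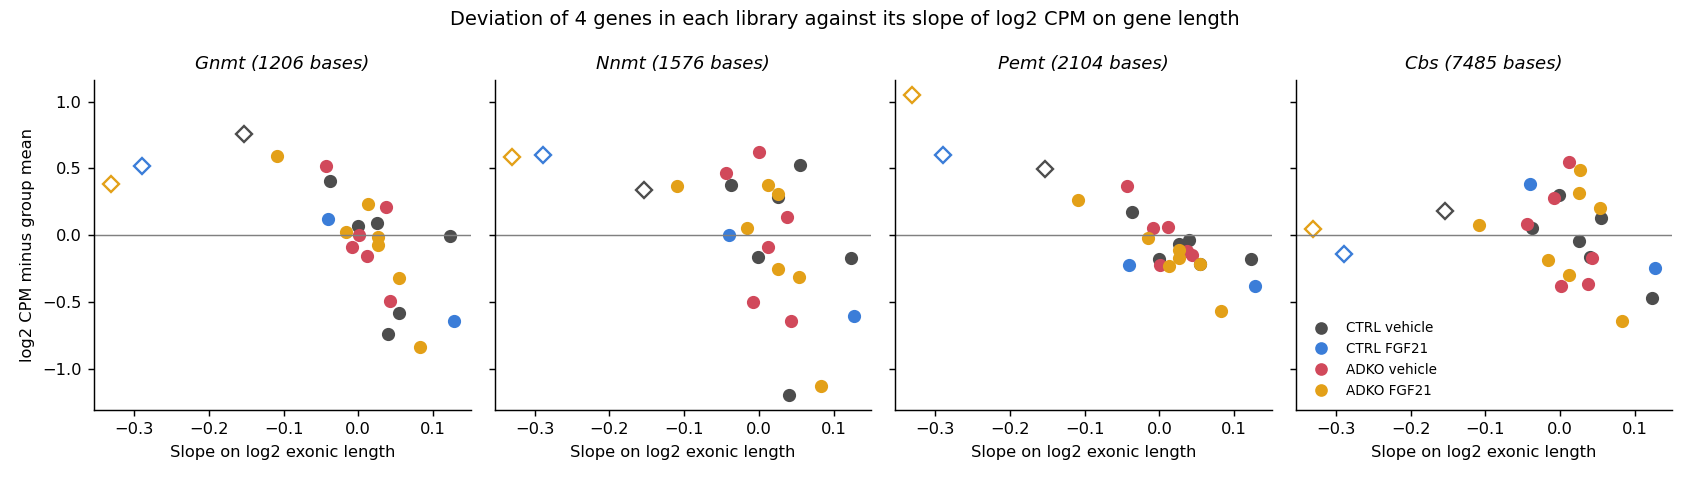
Deviation of log2 CPM from group mean (y axis) against the length slope of the same library (x axis) for Gnmt, Nnmt, Pemt, and Cbs. The slope is that of log2 CPM minus the genotype median on log2 exonic length, and each point is 1 of 24 libraries. Open diamonds are the 3 libraries that stand apart. They lie above 0 for the short genes Gnmt, Nnmt, and Pemt, and around 0 for Cbs, whose exons add up to 7485 bases.

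FGF21 against vehicle gave no call among the 10 genes in either genotype, where 0.0542% of all genes (13) were called in controls and 0.0% (0) in Lmna ADKO mice by edgeR. DESeq2 also called 0 of the 10, with 38 and 15 genes called overall. At an unadjusted p under 0.05, edgeR counted 1 of 10 genes (Nnmt) in controls and 3 (Gnmt, Ahcy, and Cbs) in Lmna ADKO mice, beside 1476 and 1608 of all genes. These comparisons share their vehicle libraries with the first one, so values are given side by side and not as separate evidence.

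In Lmna ADKO mice, Gnmt had a mean of 1075 ± 305 CPM with FGF21 (SD, n = 8) and 665 ± 161 CPM with vehicle (SD, n = 6), against 1646 ± 582 CPM in vehicle-treated controls. Of the 8 FGF21-treated libraries 6 lay above every vehicle-treated Lmna ADKO library, at a log2 difference of 0.69 (95% interval 0.22 to 1.16, edgeR adjusted p = 0.66). Ahcy averaged 1985 ± 664 CPM with FGF21 and 1346 ± 401 CPM with vehicle, at 0.56 (95% interval 0.14 to 0.99, edgeR adjusted p = 0.70), and 7 of 8 libraries exceeded the vehicle median. For Cbs the means were 476 ± 114 and 367 ± 97.3 CPM, at 0.38 (95% interval 0.032 to 0.72, edgeR adjusted p = 0.70), with 7 of 8 above the vehicle median. Nnmt averaged 120 ± 38.7 and 81.7 ± 28.1 CPM, at 0.56 (95% interval -0.020 to 1.13, edgeR adjusted p = 0.70). Mthfd1l averaged 3.90 ± 1.03 CPM with FGF21 and 5.49 ± 1.21 CPM with vehicle, at -0.49 (95% interval -1.03 to 0.048, edgeR adjusted p = 0.70). None of these differences passed the test over all genes. Mat1a averaged 3922 ± 839 and 3294 ± 621 CPM, Cth 193 ± 60.7 and 150 ± 52.7 CPM, and Pemt 310 ± 128 and 243 ± 37.7 CPM with FGF21 and vehicle, at 0.25, 0.36, and 0.35 on the log2 scale. For Pemt the difference was 0.14 without FGF21-treated Lmna ADKO library 7, 0.14 without the 3 libraries that stand apart, and 0.17 with the length slope as a covariate. The 95% intervals of these 3 genes, of Mat2a (-0.32 to 0.094), and of Bhmt (-0.49 to 0.66) included 0. Hepatocyte markers summed to a median of 108972 CPM with FGF21 and 93602 CPM with vehicle in Lmna ADKO mice, with 0 of 7 called, and their part in these values was not tested.

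In controls, FGF21-treated livers held Nnmt at 286 ± 117 CPM (SD, n = 3) and vehicle-treated livers at 158 ± 51.4 CPM (SD, n = 7), at a log2 difference of 0.85 (95% interval 0.15 to 1.55, edgeR adjusted p = 0.75). Of the 3 treated libraries 2 lay above every vehicle-treated control. The difference was 0.50 without FGF21-treated control library 3, 0.55 without the 3 libraries that stand apart, 0.58 with the length slope as a covariate, and 0.54 with the number series as a covariate. The log2 differences of the other 9 genes ran from -0.45 for Bhmt to 0.35 for Mthfd1l. For Gnmt, Mat2a, Pemt, Cbs, and Cth the sign turned when a single FGF21-treated control library was left out (library 3 for Gnmt, Mat2a, and Pemt, library 1 for Cbs, and library 2 for Cth). The interaction of genotype and treatment, which tests whether FGF21 differed in effect between genotypes, was called for 0 of the 10 genes and 0.00417% of all genes (1) by edgeR, and DESeq2 called 0 of the 10. No gene of the 10 had an unadjusted interaction p under 0.05 by either tool. The largest interaction estimate, -0.84 for Mthfd1l, had a 95% interval of -1.79 to 0.11.

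Genes around the cycle, in 6 lists, were then counted in the vehicle comparison, in which 8.48% of all genes were called, and the counts describe the lists only. Of 16 other genes of the methionine cycle and salvage pathway, which include the regulatory subunit Mat2b, the Ahcy-like proteins, Bhmt2, methionine synthase (Mtr), and polyamine enzymes, 0 were called by edgeR or DESeq2, at a median log2 difference of 0.12. Bhmt2 and Mtr differed by 0.033 (95% interval -0.22 to 0.28) and 0.21 (95% interval -0.063 to 0.48).

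Of 25 folate and glycine cleavage genes, 2 rose and 2 fell, beside the 8.48% of all genes. Mthfd2l and Mthfd2, mitochondrial methylene-tetrahydrofolate dehydrogenases that act just before Mthfd1l, rose by 0.68 and 1.34 on the log2 scale (edgeR adjusted p = 0.023 and 0.0024). Mthfd2 was below the level set for named genes and is named after its values were seen. Sardh, which oxidizes the sarcosine that Gnmt makes, fell to 790 ± 118 from 1241 ± 270.0 CPM (-0.65, edgeR adjusted p = 0.0030). Shmt1, the cytosolic serine hydroxymethyltransferase, fell to 176 ± 16.5 from 265 ± 39.3 CPM (-0.59, edgeR adjusted p = 0.00066).

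Choline and phosphatidylcholine genes had 1 of 17 called, beside the 8.48% of all genes. Chpt1, which makes phosphatidylcholine from CDP-choline and thus without methyl transfer from S-adenosylmethionine, rose to 270 ± 40.4 from 93.9 ± 16.1 CPM (1.53, edgeR adjusted p = 3.0e-09), beside Pemt, which was not called. With FGF21, Chpt1 stood at 218 ± 36.1 CPM in Lmna ADKO mice and at 101, 109, and 111 CPM in controls (1.03, edgeR adjusted p = 0.00028). Among 16 other methyl acceptor enzymes 2 were called, as the thiopurine methyltransferase Tpmt rose to 36.5 ± 3.38 from 15.7 ± 2.90 CPM (1.22, edgeR adjusted p = 1.7e-06) and the histamine methyltransferase Hnmt to 30.6 ± 1.63 from 16.1 ± 2.81 CPM (0.93, edgeR adjusted p = 0.00012), and 0 fell. With FGF21, Tpmt was higher (1.35, edgeR adjusted p = 0.00012) and Hnmt was not called (0.61, edgeR adjusted p = 0.081).

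Of 17 genes of cysteine, glutathione, and sulfide metabolism, Csad of taurine synthesis rose to 231 ± 55.5 from 86.4 ± 56.5 CPM (1.42, edgeR adjusted p = 0.011), and Gclc, the catalytic subunit of glutamate-cysteine ligase, rose to 312 ± 84.7 from 169 ± 49.5 CPM (0.88, edgeR adjusted p = 0.0015). The transaminase Got1 fell to 141 ± 69.8 from 317 ± 71.0 CPM (-1.16, edgeR adjusted p = 0.024). Of the 17 genes, 2 thus rose and 1 fell, beside the 8.48% of all genes. With FGF21, where 2.88% of all genes were called by edgeR, 0 of these 17 genes were called, with Csad at 1.495 (adjusted p = 0.091) and Gclc at 0.79 (adjusted p = 0.056). Of the 25 folate genes 0 were likewise called, with Sardh at -0.48 (adjusted p = 0.14) and Shmt1 at -0.30 (adjusted p = 0.27). Of 22 nicotinamide and NAD genes, 2 rose and 2 fell with vehicle, beside the 8.48% of all genes. Nampt, which salvages nicotinamide, the substrate of Nnmt, rose to 80.2 ± 17.6 from 49.8 ± 11.6 CPM (0.69, edgeR adjusted p = 0.0031). Aox1, an oxidase of methylated nicotinamide, rose to 100 ± 16.5 from 42.4 ± 7.39 CPM (1.24, edgeR adjusted p = 4.5e-07). Afmid and Acmsd, enzymes of tryptophan breakdown, fell by 1.37 and 1.12 on the log2 scale (edgeR adjusted p = 0.0016 and 0.0012). With FGF21, Aox1 was higher (0.61, edgeR adjusted p = 0.042) and Acmsd lower (-0.94, edgeR adjusted p = 0.040) in Lmna ADKO mice, whereas Nampt (0.21, adjusted p = 0.62) and Afmid (-0.68, adjusted p = 0.28) were not called. Here 0 genes of the 6 lists were called for FGF21 against vehicle in either genotype by edgeR, beside 0.0542% of all genes in controls and 0.0% in Lmna ADKO mice.

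**Figure D4:**
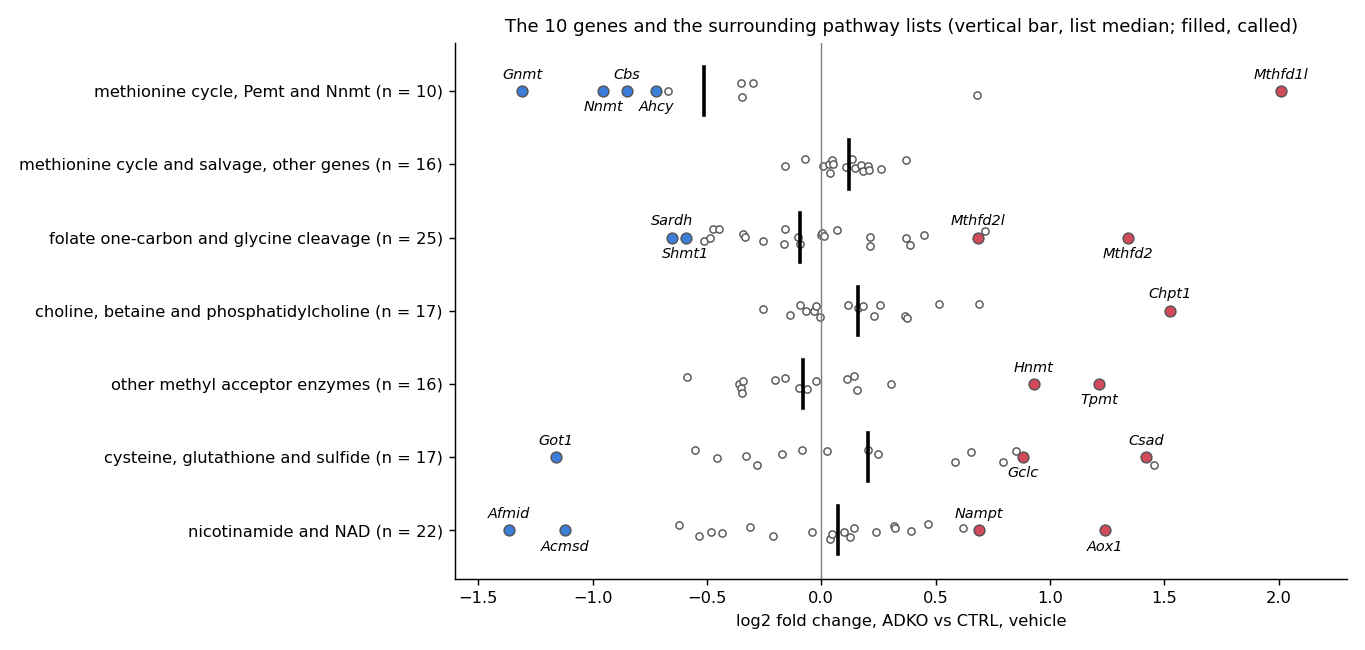
Log2 fold change of each gene in vehicle-treated Lmna ADKO against control liver (x axis), for the 10 genes and 6 lists around them. Filled points were called, red higher and blue lower, and the vertical bar is the median of a list. The median of the 10 genes, -0.51, is below those of the lists, which run from -0.093 to 0.20. Genes and lists were chosen with earlier results of these data known, so the medians are a description only.

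Within groups, the genes varied together to different degrees. Pearson correlations of log2 CPM, after subtraction of group means, are given as a description over libraries that share diet, processing, and composition. Over 24 libraries, Mat1a and Ahcy had r = 0.80, Gnmt and Nnmt 0.76, Ahcy and Cth 0.71, Gnmt and Pemt 0.69, and Gnmt and Ahcy 0.67. Without the 3 libraries that stand apart, Gnmt and Ahcy reached 0.87, Mat1a and Gnmt 0.77 in place of 0.32, and Pemt and Cth 0.74 in place of -0.075. Cbs and Bhmt, at the branch between transsulfuration and remethylation of homocysteine, had r = -0.53 with and -0.52 without these libraries. Mthfd1l had no r above 0.19 with the other 9 genes in either set of libraries.

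**Figure D5:**
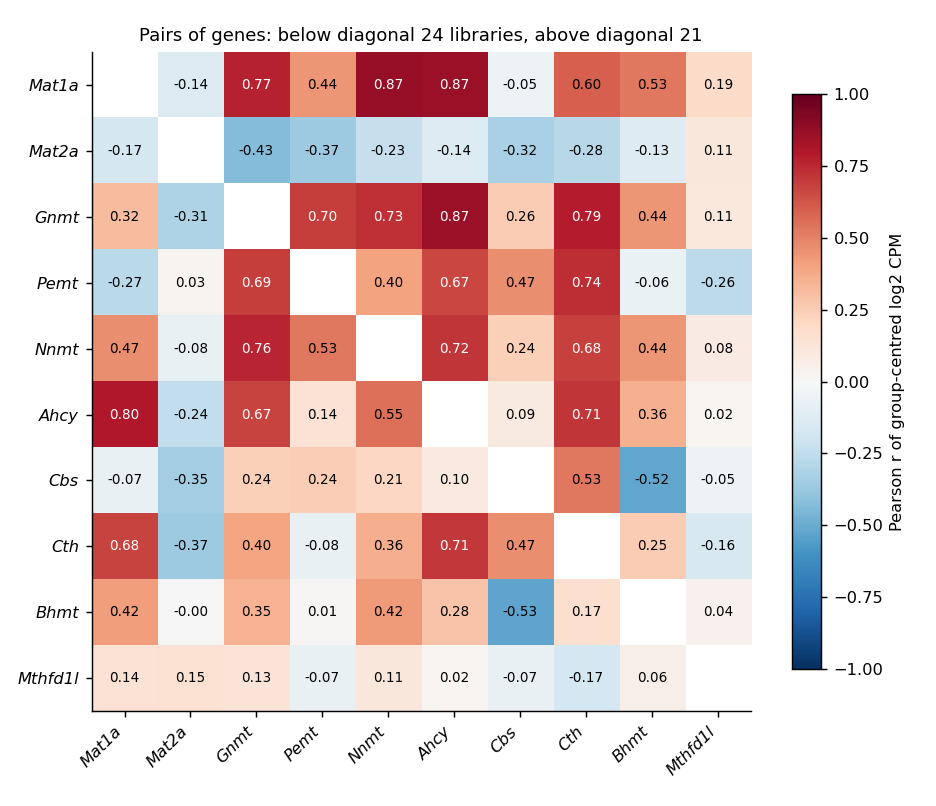
Pearson r of log2 CPM after subtraction of group means for each pair of the 10 genes, over 24 libraries below the diagonal and over the 21 libraries without the 3 that stand apart above it. Gnmt, Ahcy, Mat1a, Nnmt, and Cth show positive values with each other on both sides of the diagonal. Above it, Pemt and Bhmt are also positive with each of these genes. Cbs with Bhmt is negative on both sides.

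Among 11314 genes, those with the pattern most like each of the 10 over the 24 libraries were taken by the same r. Gnmt varied most like Selenbp1 (0.93) and Pxmp2 (0.92), and Ahcy most like Upp2 (0.93) and Dpys (0.90). Mat1a was nearest to Ttc38 (0.92) and Abat (0.84), Cth to Mccc2 (0.89) and Iyd (0.88), and Cbs to Zfp707 (0.86) and Coq8a (0.83). Pemt had its highest values with Tmem205 (0.98) and Ppdpf (0.97), which were 0.93 and 0.90 without the 3 libraries that stand apart. Nnmt was nearest to Dnajc30 (0.85) and Saa4 (0.83), and Mat2a to Mphosph10 (0.79) and Api5 (0.73). Bhmt had 0.80 with Prnp. Mthfd1l had the lowest, at 0.70 with Accs and 0.68 with Galnt15. The log2 ratio of Nnmt to Gnmt per length, a pair of enzymes that compete for the donor, was -3.77 ± 0.54 in vehicle-treated controls, -3.14 ± 0.11 in FGF21-treated controls, -3.45 ± 0.34 in vehicle-treated Lmna ADKO mice, and -3.57 ± 0.22 in FGF21-treated Lmna ADKO mice.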

How the data were processed

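The authors deposited whole-number counts of reads per gene, without normalization, for polyA RNA of whole liver. The labels describe a strand-specific (dUTP) library, and the strand setting of the counting is not given in the sources used here. The submitters' processing notes name cutadapt 4.8, FastQC 0.11.8, STAR 2.7.8a, RSEM 1.3.3, and GRCm38. If RSEM made the counts, they were rounded before deposit. By the methods, Ensembl 102 annotation was used, genes without any count were removed, and tests were run with DESeq2. The methods and labels name different sequencing providers. Symbols, positions, and exonic lengths came from GENCODE M21 (GRCm38), which holds 23926 of 23972 genes.

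Counts were tested with edgeR 4.0.16 (TMM, robust glmQLFit, and glmQLFTest), fitting the 4 groups together over all genes and 24 libraries, with Benjamini-Hochberg adjustment. Calls needed an adjusted p under 0.05 and a fold change above 1.5. DESeq2 1.42.0 was an alternative. Standard errors are the absolute log2 fold change over the square root of F, and intervals are 95% from the same fit. Log2 CPM used a prior count of 2. Depth of 19863304 to 21510054 reads sets a floor of 3 counts, for counting error only. The length slope is that of log2 CPM, minus the median of the gene over libraries of the same genotype, on log2 exonic length over 9694 genes. Libraries were numbered within groups in the order of animal numbers, which are not shared between groups, and 67 pairs within groups differed by more than sampling noise. Each library is taken as 1 mouse. The pipeline was tested on simulated data.

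The 10 genes, the lists, and the tests were chosen with earlier results of these data known. Named genes are the 10, up to 4 genes per list with the largest change among those called with vehicle at a mean log2 CPM of at least 0, up to 3 per list called elsewhere, and the 2 genes most like each of the 10 at a mean log2 CPM of at least 1. A gene of the latter kind is not reported here. Tf of the hepatocyte list and Nmrk2 were not matched by symbol and are not analysed here, and Nnt matched 2 rows and was left out. In 50-base windows, transcripts of other genes were compared with those of the 10.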

Additional observations from a re-analysis of the deposited data

Results flagged for a closer look

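In each group of 6 to 8 libraries, the highest and lowest library of each of the 10 genes were compared with the others by Dixon's test at the 95% level. Of 30 combinations of gene and group, 3 had a library far from the rest, and chance flags about 1 in 20 groups. Cth was 251 CPM in vehicle-treated Lmna ADKO library 4, with a gap to the next library of 0.628 of the range of the group. Pemt was 609 CPM in FGF21-treated Lmna ADKO library 7, with a gap of 0.625 of the range, and this library also had the steepest slope on gene length, -0.331. Mthfd1l was 3.50 CPM in vehicle-treated control library 4, with a gap of 0.683 of the range.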

How the results depend on the processing

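For Lmna ADKO against control with vehicle, 5 of 10 genes were called, and 5 or 6 under each alternative (DESeq2, its size factors in edgeR, filtered genes, the adjusted p alone, only the groups compared, the number series as a covariate, the length slope as a covariate, and without the 3 libraries that stand apart), and no gene of the 10 changed sign. Over all genes, 2033 were called with vehicle by edgeR, 2152 by DESeq2, and 3623 by the adjusted p alone. Without the 3 libraries that stand apart, the edgeR adjusted p was 0.0498 for Ahcy and 0.047 for Nnmt, near the threshold. With only the groups compared, that of Nnmt was 0.042. Leaving out single libraries gave 3 to 6, with 3 without Lmna ADKO library 1 or 3. With FGF21, where 1 gene was called, DESeq2 called 4, the filtered genes 2, the length slope as a covariate 2, the adjusted p alone 2, and the fit without the 3 libraries that stand apart 0. Over all genes, 690 were called with FGF21 by edgeR, 1022 by DESeq2, and 924 by the adjusted p alone. Single omissions gave 0 to 2, with 0 without FGF21-treated control library 3 or Lmna ADKO library 1 or 8, and 2 without control library 1 or Lmna ADKO library 4. With only the groups compared, the number series as a covariate, or the 4-digit libraries alone, the 1 gene called was Bhmt and not Nnmt. The cause was not tested.

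For FGF21 against vehicle in controls, uncalled values changed sign for Mat2a (-0.086 without the 3 libraries that stand apart), Gnmt (-0.023 with the length slope as a covariate), Cbs (0.019 with the number series as a covariate and 0.0079 without the 3 libraries that stand apart), and Cth (-0.042 with the number series as a covariate). Leaving out single libraries ranged from -0.046 to 0.14 for Mat2a, -0.065 to 0.48 for Gnmt, -0.32 to 0.021 for Cbs, -0.19 to 0.40 for Cth, and -0.032 to 0.52 for Pemt. In Lmna ADKO mice, Bhmt ranged from -0.044 to 0.23. For genotype with FGF21, Pemt ranged from -0.55 to 0.034. For the interaction, Nnmt was 0.14 with the number series as a covariate, and single omissions ranged from -0.55 to 0.057 for Nnmt, -0.20 to 0.39 for Pemt, and -0.035 to 0.55 for Cth.

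Of the lists with vehicle, the adjusted p alone called 1 of the other methionine genes (0 with the fold limit), 11 folate genes (4), 4 choline genes (1), 6 cysteine genes (3), and 8 nicotinamide genes (4), and 5 cysteine genes were called without the 3 libraries that stand apart. By the adjusted p alone, 3623 of all 23972 genes passed with vehicle, and 2033 with the fold limit. No paired analysis was possible because animal numbers are not shared between groups. Comparisons within the 4-digit series were made where both groups hold at least 3 such libraries.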
